A study of Homo sapiens with 21 samples.

Results

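Open chromatin was compared between 2 established human melanoma cell lines, 501mel and SKMEL-5, from 1 ATAC-seq library each, 2 of the 21 samples of the series. ATAC-seq cuts and tags DNA wherever it is not packed by nucleosomes or other proteins, so its enriched regions mark promoters, enhancers and insulators that are accessible. The 501mel list held 104442 regions and the SKMEL-5 list 56333 on the autosomes and the X chromosome, together 160775 of the 442275 regions in the 4 ATAC lists of the series. Cells of both lines were cultured for 72 h in complete medium with or without 1 µg/ml doxycycline, which in this study induces hairpin or overexpression constructs for the homeobox factor HOXD13. The labels of these libraries name no construct and do not say whether doxycycline was given. Region names in the 501mel list contain siNTC, a term absent from its label, and whether these cells received a control siRNA is not stated. The extraction text in the labels describes RNA libraries, so the ATAC protocol is not given in the sources used here. With 1 library per line there is no spread between replicates, no test was possible, and every difference below is a difference between these libraries.

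Melanoma arises from melanocytes, pigment cells of neural crest origin whose identity rests on the transcription factors MITF, SOX10 and PAX3. Melanoma lines range from melanocytic states, with pigment genes such as TYR and MLANA active, to undifferentiated states marked by EGFR, AXL and extracellular matrix genes. Promoters of widely used genes tend to be open in many cell types, while enhancers inside and between genes differ more from cell to cell. Acetylation of histone H3 at lysine 27 (K27ac) marks active promoters and enhancers, and CTCF is a DNA-binding protein of insulators and loop anchors. Both were profiled in the same 2 lines.

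The following 8 gene starts were open in 1 line and met no region of the other line's full list, and they are shown first because they stand for gene groups described further on. Each line holds the RefSeq promoter (GRCh38.p14, 250 bases before to 50 after the start, 5′ to 3′ on the gene's strand), and capitals mark matches to the motifs searched below. The first 4 were open in 501mel: GPR143, a melanosome receptor (chrX:9765798-9766097, minus strand), LEF1, a WNT pathway factor of the melanocyte lineage (chr4:108166252-108166551, minus), MAGEC1, a cancer-testis antigen (chrX:141903644-141903943, plus), and CDKN2B, a cell cycle inhibitor (chr9:22009256-22009555, minus).
GPR143: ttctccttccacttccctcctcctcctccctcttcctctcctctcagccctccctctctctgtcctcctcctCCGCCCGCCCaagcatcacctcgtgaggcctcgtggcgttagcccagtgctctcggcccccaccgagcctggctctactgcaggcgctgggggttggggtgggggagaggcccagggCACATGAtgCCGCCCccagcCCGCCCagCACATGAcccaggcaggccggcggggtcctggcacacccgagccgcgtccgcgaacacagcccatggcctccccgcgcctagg
LEF1: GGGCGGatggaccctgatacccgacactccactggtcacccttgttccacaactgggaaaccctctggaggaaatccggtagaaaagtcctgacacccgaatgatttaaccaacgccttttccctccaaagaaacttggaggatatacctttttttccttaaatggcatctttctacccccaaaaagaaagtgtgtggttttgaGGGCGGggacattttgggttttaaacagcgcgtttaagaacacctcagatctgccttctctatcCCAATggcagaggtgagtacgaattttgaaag
MAGEC1: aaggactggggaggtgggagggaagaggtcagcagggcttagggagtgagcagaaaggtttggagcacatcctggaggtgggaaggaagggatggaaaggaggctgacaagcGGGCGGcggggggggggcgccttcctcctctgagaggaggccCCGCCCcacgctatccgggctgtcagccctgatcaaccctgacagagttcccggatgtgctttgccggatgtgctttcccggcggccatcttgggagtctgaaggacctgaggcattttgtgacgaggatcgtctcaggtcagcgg
CDKN2B: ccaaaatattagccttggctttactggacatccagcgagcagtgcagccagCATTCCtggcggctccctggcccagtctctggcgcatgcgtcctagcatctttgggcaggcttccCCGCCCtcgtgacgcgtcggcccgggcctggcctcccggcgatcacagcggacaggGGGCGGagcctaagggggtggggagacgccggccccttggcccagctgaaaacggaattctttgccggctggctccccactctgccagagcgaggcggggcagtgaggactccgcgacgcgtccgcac
The other 4 were open in SKMEL-5: NT5E, the CD73 enzyme that makes adenosine (chr6:85449833-85450132, plus), TGFBI, a matrix protein (chr5:136028738-136029037, plus), ITGA4, an integrin subunit (chr2:181457136-181457435, plus), and CXCL1, a chemokine (chr4:73869143-73869442, plus).
NT5E: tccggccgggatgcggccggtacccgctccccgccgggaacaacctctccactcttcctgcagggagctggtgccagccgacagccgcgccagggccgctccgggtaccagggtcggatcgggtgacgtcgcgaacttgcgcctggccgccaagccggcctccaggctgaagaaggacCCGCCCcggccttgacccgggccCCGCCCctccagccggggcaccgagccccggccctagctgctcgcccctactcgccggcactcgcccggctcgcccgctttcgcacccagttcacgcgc
TGFBI: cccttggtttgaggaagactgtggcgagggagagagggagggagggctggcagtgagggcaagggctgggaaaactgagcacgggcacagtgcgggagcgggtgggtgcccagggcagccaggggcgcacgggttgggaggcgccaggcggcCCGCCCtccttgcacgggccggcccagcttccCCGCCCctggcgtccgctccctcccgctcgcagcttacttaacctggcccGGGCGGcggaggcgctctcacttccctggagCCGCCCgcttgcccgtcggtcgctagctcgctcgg
ITGA4: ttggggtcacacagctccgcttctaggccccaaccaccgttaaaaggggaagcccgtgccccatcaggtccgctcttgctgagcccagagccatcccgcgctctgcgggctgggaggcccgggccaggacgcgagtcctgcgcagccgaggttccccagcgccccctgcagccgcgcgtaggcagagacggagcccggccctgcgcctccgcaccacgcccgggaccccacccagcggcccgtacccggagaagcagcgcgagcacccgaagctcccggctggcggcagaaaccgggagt
CXCL1: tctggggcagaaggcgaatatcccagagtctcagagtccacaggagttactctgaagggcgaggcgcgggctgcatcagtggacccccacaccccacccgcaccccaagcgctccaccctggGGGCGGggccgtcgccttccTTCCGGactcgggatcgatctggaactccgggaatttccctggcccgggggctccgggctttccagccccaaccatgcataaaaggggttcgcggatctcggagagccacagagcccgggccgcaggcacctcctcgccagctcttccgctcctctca

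The lists differed in length and in strength. Regions covered 41.9 Mb in 501mel and 18.7 Mb in SKMEL-5, with median widths of 304 bp in 501mel and 280 bp in SKMEL-5 and a median enrichment over the caller's background, the authors' fold, of 7.49 in 501mel and 6.75 in SKMEL-5. The median −log10 q, the authors' measure of confidence, was 16.0 in 501mel and 7.38 in SKMEL-5. As deposited, 44051 of the 104442 regions of 501mel (42.2%, 95% Wilson interval 41.9 to 42.5) overlapped a SKMEL-5 region by at least 1 bp, and 45335 of the 56333 regions of SKMEL-5 (80.5%, 80.1 to 80.8) overlapped one of 501mel. A shorter list leaves more regions of the longer one unmatched, so the 501mel list was also held to its 56333 strongest regions. The last region inside and the first outside that limit both had a −log10 q of 13.9 and a fold of 7.91. At equal length, 35717 regions of 501mel (63.4%, 63.0 to 63.8) and 37167 of SKMEL-5 (66.0%, 65.6 to 66.4) were shared. Intervals here and below cover counting error only.

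Unshared regions fell into 3 classes. Only in 501mel were 20616 regions (36.6%, 36.2 to 37.0). In SKMEL-5, 8168 regions (14.5%, 14.2 to 14.8) met only 501mel regions ranked below the limit, called lower-ranked here, and 10998 (19.5%, 19.2 to 19.9) met no region of 501mel at all. The rank is within the 501mel list, so a lower-ranked 501mel region is not thereby weaker than its SKMEL-5 partner. The regions only in 501mel had a median fold of 9.84 and a width of 370 bp, against a fold of 13.2 and a width of 578 bp for the shared 501mel regions. SKMEL-5 regions met by no 501mel region had a median fold of 4.78 and a width of 207 bp, against a fold of 7.85 and a width of 327 bp for the shared SKMEL-5 regions. In both lines the share of shared regions climbed with strength through all 10 strength classes. In 501mel the weakest class was shared at 32.7% and the strongest at 95.9%, and in SKMEL-5 the values were 26.1% and 96.9%.

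**Figure D1:**
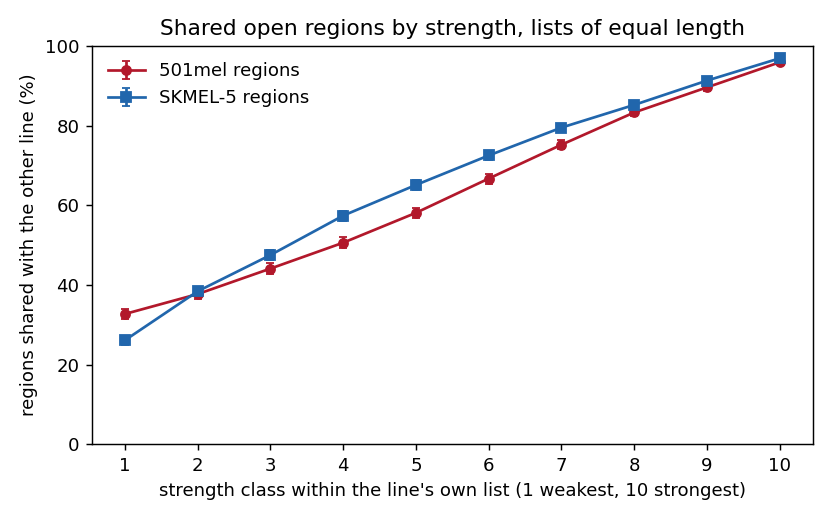
Percent of regions shared with the other line (y axis) in 10 equal classes of −log10 q within each line's own list (x axis, weakest to strongest), for the 56333 strongest regions of 501mel (circles) and the 56333 regions of SKMEL-5 (squares); bars are 95% Wilson intervals. The weakest and strongest classes stand at 32.7 and 95.9% for 501mel and at 26.1 and 96.9% for SKMEL-5.

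Regions open in 1 line lay away from gene starts. Only 9.89% of the regions only in 501mel (9.49 to 10.3) had their midpoint within 2 kb of a start, against 29.7% of the shared 501mel regions (29.2 to 30.2). In SKMEL-5 the shares were 9.97% of the regions met by no 501mel region (9.42 to 10.5), 10.6% of those met by lower-ranked 501mel regions, and 31.0% of the shared ones. The median distance to the nearest start was 37.4 kb for regions only in 501mel and 45.6 kb for SKMEL-5 regions with no 501mel partner, against 18.0 kb for the shared regions of 501mel and 17.0 kb for those of SKMEL-5. The lines differed in where the remainder lay. Inside genes were 47.3% of the regions only in 501mel (46.6 to 48.0) and 39.8% of the SKMEL-5 regions with no partner (38.9 to 40.7), while 42.8% of these 501mel regions and 50.2% of these SKMEL-5 regions lay between genes. Shared regions split alike in the 2 lines, with 33.6% of 501mel and 32.8% of SKMEL-5 inside genes.

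**Figure D2:**
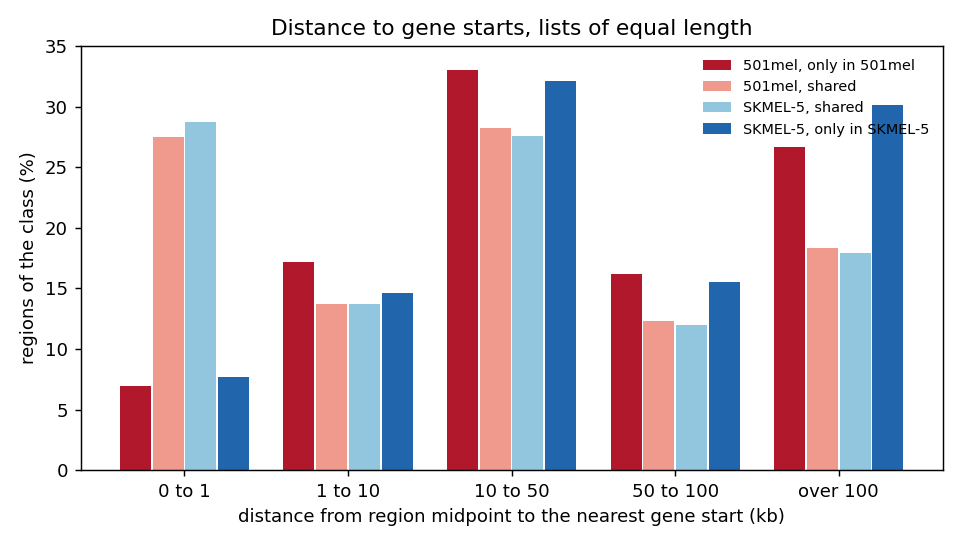
Percent of regions (y axis) by distance from region midpoint to the nearest gene start in kb (x axis), for regions only in 501mel, shared 501mel regions, shared SKMEL-5 regions and SKMEL-5 regions absent from the equal-length 501mel list. Within 1 kb lay 6.96% of the 501mel-only and 7.71% of the SKMEL-5-only regions, against 27.5% of the shared 501mel and 28.7% of the shared SKMEL-5 regions; beyond 100 kb lay 26.7% of the 501mel-only, 18.3% of the shared 501mel, 17.9% of the shared SKMEL-5 and 30.1% of the SKMEL-5-only regions.

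Regions at starts were also the stronger ones, with 6821 of 12638 in the strongest of 3 equal strength groups in 501mel and 5832 of 13489 in SKMEL-5. Near starts, 83.9% of the 501mel regions and 85.5% of the SKMEL-5 regions were shared, against 55.1% inside and 59.8% between genes in 501mel and 61.0% inside and 58.8% between genes in SKMEL-5. Within the weakest group regions near starts were still shared most often, with 48.8% near starts, 35.7% in genes and 40.0% between genes in 501mel, and 65.4% near starts, 35.7% in genes and 32.7% between genes in SKMEL-5. In the strongest group, regions near starts were shared in 97.5% of cases in 501mel and 96.5% in SKMEL-5, against 82.5 to 83.9% elsewhere in 501mel and 87.0 to 87.7% in SKMEL-5.

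K27ac and CTCF, read from separate libraries of the same lines, differed at these regions in the direction of the ATAC lists. Of the regions only in 501mel, 25.5% (24.9 to 26.1) overlapped K27ac of 501mel and 18.8% (18.3 to 19.3) K27ac of SKMEL-5. CTCF of 501mel was found at 32.8% of them and CTCF of SKMEL-5 at 23.9%, a difference of 8.93 percentage points that shrank to 0.0795 with the lists as deposited. SKMEL-5 regions with no 501mel partner overlapped K27ac of 501mel in 3.14% of cases (2.83 to 3.48) and K27ac of SKMEL-5 in 15.3% (14.7 to 16.0). CTCF at these regions was 4.06% in 501mel and 22.0% in SKMEL-5. Those met by lower-ranked 501mel regions lay between the regions with no partner and the shared SKMEL-5 regions. They had K27ac at 7.04% in 501mel and 24.2% in SKMEL-5, and CTCF at 21.0% in 501mel and 42.3% in SKMEL-5. Shared SKMEL-5 regions had K27ac at 18.1% in 501mel and 52.8% in SKMEL-5, and CTCF at 54.8% in 501mel and 57.2% in SKMEL-5. Shared 501mel regions carried CTCF of 501mel at 56.8% and CTCF of SKMEL-5 at 58.7%, but K27ac of 501mel at 24.2% and K27ac of SKMEL-5 at 54.6%.

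The K27ac lists themselves differed at gene starts. Regions of the 501mel K27ac list overlapped the very start of 4.70% of genes, against 31.7% in SKMEL-5, although the list was longer, with 55889 regions in 501mel and 42115 in SKMEL-5. Within 1 kb of the start the shares were 22.3% of genes in 501mel and 46.7% in SKMEL-5. A missing 501mel K27ac region at a start was therefore not read as missing acetylation. A further setting, named below by its −log10 q of at least 10, kept the 19941 SKMEL-5 regions past that limit. It held 501mel to its 19941 strongest regions. All equal-length 501mel regions had a −log10 q of at least 13.9, so the cut lay higher in 501mel than in SKMEL-5. Its 501mel-only regions may overlap SKMEL-5 regions below the limit. There the difference in K27ac at 501mel-only regions, 501mel minus SKMEL-5, turned to −12.6 percentage points, against 6.72 in the full comparison. By position, the 501mel-only regions inside genes had K27ac in 30.6% in 501mel and 19.0% in SKMEL-5, and those between genes in 20.2% in 501mel and 13.7% in SKMEL-5. Near starts the values were 24.2% in 501mel and 39.6% in SKMEL-5, the line whose ATAC list lacked these regions.

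**Figure D3:**
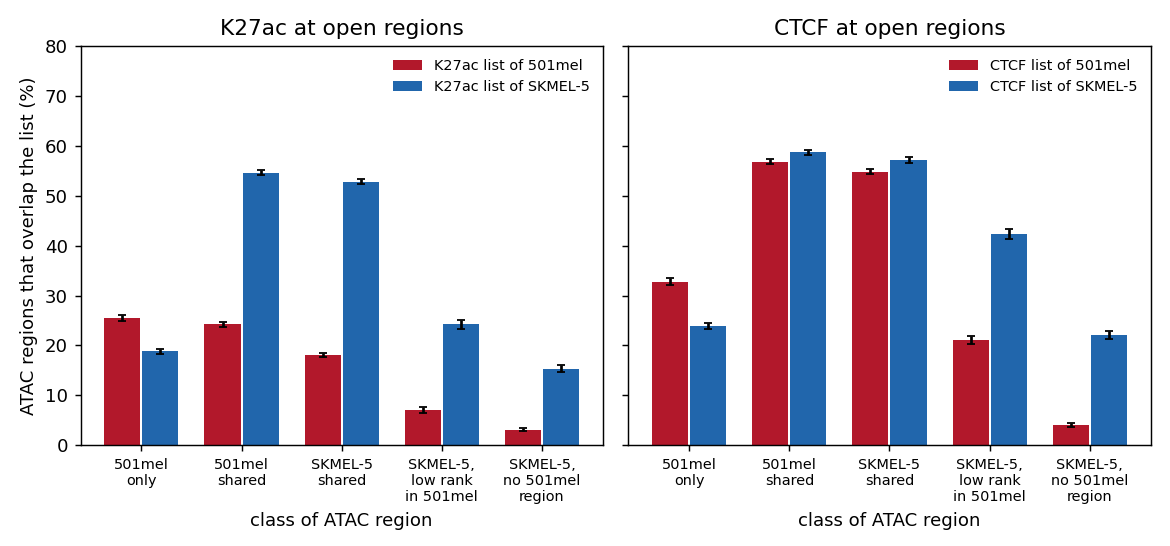
Percent of ATAC regions (y axis) that overlap a K27ac region (left) or a CTCF region (right) of 501mel (red, left bar) or SKMEL-5 (blue, right bar), by class of ATAC region (x axis); bars show 95% Wilson intervals. CTCF stood at 32.8% (501mel) and 23.9% (SKMEL-5) of 501mel-only regions, 56.8% (501mel) and 58.7% (SKMEL-5) of shared 501mel regions, and 4.06% (501mel) and 22.0% (SKMEL-5) of SKMEL-5 regions with no 501mel partner.

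The ATAC lists of 2 further melanoma lines, SKMEL-147 and A375 carrying GFP, showed how far these regions recurred. Of the 501mel-only regions 50.4% were listed in SKMEL-147 and 50.7% in A375-GFP, and 36.3% (35.6 to 36.9) in neither. For the SKMEL-5 regions with no 501mel partner the values were 51.9% in SKMEL-147, 52.6% in A375-GFP and 34.6% in neither. Shared regions recurred in 85.0% (SKMEL-147) and 88.8% (A375-GFP) of cases for 501mel, and 6.20% were in neither line.

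The 10 strongest unshared regions of each line had different properties, but the whole classes did not differ in the same way. CTCF of the own line overlapped 32.8% of all 501mel-only regions and 22.0% of the SKMEL-5 regions with no partner. For K27ac of the own line the shares were 25.5% (501mel) and 15.3% (SKMEL-5). Listed in neither SKMEL-147 nor A375-GFP were 36.3% (501mel) and 34.6% (SKMEL-5). Of the 10 regions of largest fold in 501mel that met no SKMEL-5 region, 1 per Mb, 2 were listed in SKMEL-147 or A375-GFP, 2 overlapped K27ac and 2 CTCF of 501mel. The first lay 96.6 kb from FAM246B on chromosome 22 (18730387 to 18730730, hg38) with a fold of 52.7. A 155-bp region within KIAA0825 followed with a fold of 47.7, then a 158-bp region 507 kb from TPTE on chromosome 21 with a fold of 45.8. No filter on repetitive sequence was applied here. The 10 strongest regions of SKMEL-5 had folds of 15.6 to 22.3. CTCF of 501mel overlapped 0 of them and CTCF of SKMEL-5 9, K27ac of 501mel 0 and K27ac of SKMEL-5 5, and 7 recurred in SKMEL-147 or A375-GFP. The first of these lay between genes on chromosome 5 (18653157 to 18653747) with a fold of 22.3, 998 kb from the nearest start, that of H3Y1. Only the region at CORIN, which encodes a serine protease that activates natriuretic peptide, was near a start, at 1.01 kb, with a fold of 16.0.

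The balance between the lines varied by chromosome. At equal length, chromosome 7 held 3049 regions of 501mel and 3817 of SKMEL-5, a ratio of 0.799, and chromosome 10 held 2562 of 501mel and 2045 of SKMEL-5, a ratio of 1.25. Regions only in 501mel were 30.0% of the 501mel regions on chromosome 7 and 43.3% on chromosome 10. SKMEL-5 regions absent from the equal-length 501mel list were 42.0% and 26.6% of the SKMEL-5 regions there. Those met by no region of the full 501mel list were 25.5% on chromosome 7 and 14.6% on chromosome 10. CTCF and K27ac leaned the same way on these chromosomes, which were picked after their values were seen: as a share of its own list, chromosome 7 held 0.759 times as many CTCF regions and 0.871 times as many K27ac regions in 501mel as in SKMEL-5, and chromosome 10 held 1.21 and 1.45 times as many. On chromosome X the ratio of ATAC regions, 501mel over SKMEL-5, was 0.852, of CTCF shares 0.636 and of K27ac shares 0.446. Of the 23 chromosomes, 18 had their K27ac ratio and 17 their CTCF ratio on the same side of 1 as the ATAC ratio, and 14 had both. Chromosome 21 was among the exceptions, with an ATAC ratio of 1.17 and a K27ac ratio of 0.660. DNA copy number was not measured in these libraries, and its part in the ratios was not tested.

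**Figure D4:**
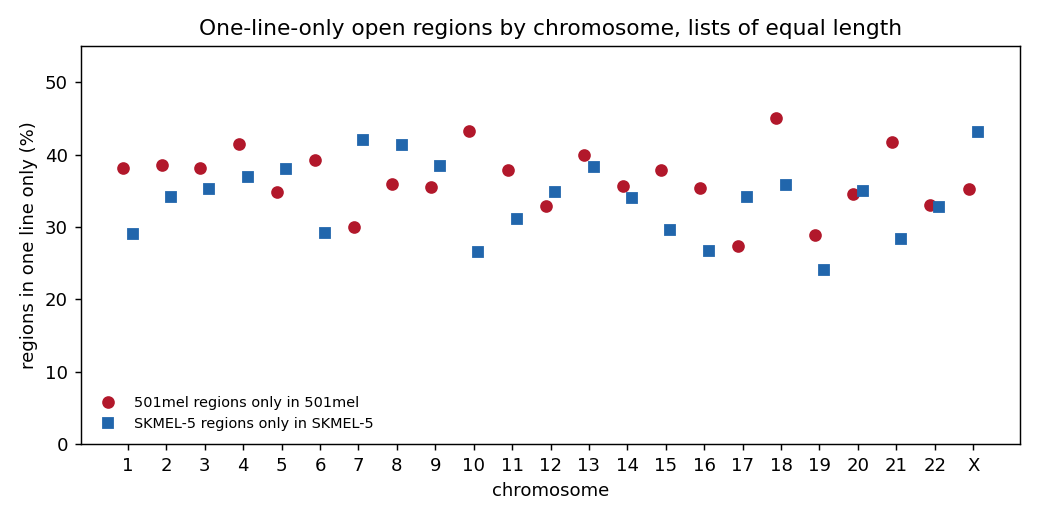
Percent of a line's equal-length ATAC list that met no region of the other line's equal-length list (y axis) by chromosome (x axis), for 501mel (circles) and SKMEL-5 (squares). Of the SKMEL-5 regions, 25.5% on chromosome 7 and 14.6% on chromosome 10 met no region of the full 501mel list. Chromosomes 7 and 10 stand opposite each other, with 30.0% (501mel) and 42.0% (SKMEL-5) on chromosome 7 and 43.3% (501mel) and 26.6% (SKMEL-5) on chromosome 10.

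The widest gap lay on the short arm of chromosome 9, where SKMEL-5 had almost no region of any kind. Between 21434362 and 27726396 (6.29 Mb, hg38) 501mel had 125 regions, 69 of them in the equal-length list, and SKMEL-5 had 2, with a fold of at most 4.14. K27ac regions there numbered 61 in 501mel and 0 in SKMEL-5, and CTCF regions 32 in 501mel and 1 in SKMEL-5. SKMEL-147 had 268 ATAC regions in the same stretch and A375-GFP 207. The stretch holds 20 protein-coding genes, among them the cell cycle inhibitors CDKN2A and CDKN2B, MTAP of methionine salvage, and TEK, the angiopoietin receptor. CDKN2A had 5 regions within 50 kb in 501mel and 0 in SKMEL-5, CDKN2B had 6 in 501mel and 0 in SKMEL-5, and MTAP had 7 in 501mel and 0 in SKMEL-5. At the other end of it MOB3B, an adaptor of the MOB family, had 19 regions in 501mel and 0 in SKMEL-5, with 37 K27ac regions in 501mel and 0 in SKMEL-5. A stretch all but empty in the ATAC, K27ac and CTCF lists of a line cannot be told apart from a stretch without DNA in these files, so the genes there were not read as closed chromatin.

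Other stretches lacked regions in 1 line. On chromosome 18, 16 regions of the equal-length 501mel list lay in 0.217 Mb at SETBP1, which encodes a SET-binding nuclear protein, with 0 of SKMEL-5 between them. K27ac regions there numbered 29 in 501mel and 0 in SKMEL-5, and CTCF regions 4 in 501mel and 0 in SKMEL-5. The reverse held around SOX9, a neural crest transcription factor, on chromosome 17 (71777036 to 72435340). In that 0.658 Mb the equal-length 501mel list had 0 regions and SKMEL-5 had 22, and the full 501mel list had 14 lower-ranked ones. K27ac regions numbered 0 in 501mel and 16 in SKMEL-5, and CTCF regions 1 in 501mel and 16 in SKMEL-5. On chromosome X, a 1.47-Mb stretch with the BEX and TCEAL gene families had 0 regions of the equal-length 501mel list (12 of the full list) and 18 of SKMEL-5. There K27ac regions numbered 0 in 501mel and 12 in SKMEL-5, and CTCF regions 2 in 501mel and 25 in SKMEL-5.

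For genes, the regions whose midpoint lay in the gene or within 50 kb of it were counted in the equal-length lists. A gene counted as having more in a line at a difference of at least 3 regions and a ratio of at least 2 after adding 1 to each count. Of 19974 protein-coding genes, 607 (3.04%) had more regions in 501mel and 758 (3.79%) in SKMEL-5. With the lists as deposited, 5668 genes had more in 501mel, among them all 607, and 52 in SKMEL-5, all of them among the 758. Both overlaps were fixed in advance, because the full 501mel list only adds 501mel regions and the SKMEL-5 list stays the same. At a −log10 q of at least 10, with 501mel held to its 19941 strongest regions, 72 of the 607 and 56 of the 758 passed again. The median gene had 5 regions in each line and a median difference of 0. Just inside the limit, 208 of the 607 genes and 341 of the 758 differed by exactly 3, and just outside it 1906 genes had exactly 2 more in 501mel and 1969 exactly 2 more in SKMEL-5. K27ac, which was not used for the counts, leaned with them. Of the 607 genes with more open regions in 501mel, 442 (72.8%) also had more K27ac regions in 501mel, against 35.6% of all genes. Of the 758 with more in SKMEL-5, 464 (61.2%) had more K27ac in SKMEL-5, against 40.6% of all genes. CTCF regions were more numerous in 501mel at 47.8% of the 607 genes (20.9% of all genes) and in SKMEL-5 at 82.6% of the 758 (54.2% of all). Chromosome 7 contributed 3 genes with more in 501mel and 82 with more in SKMEL-5, and chromosome 10 contributed 46 for 501mel and 8 for SKMEL-5.

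The 10 genes of largest difference in favour of 501mel, 1 per Mb, were SEMA5A, LRMDA, MOB3B, ERBB4, PRKG1, DNM3, AGAP1, CRACD, SETBP1 and ABCA4. SEMA5A, a semaphorin guidance cue, had 38 regions in 501mel and 18 in SKMEL-5, with 189 K27ac regions in 501mel and 21 in SKMEL-5. LRMDA, which is required for melanocyte differentiation and is mutated in a form of albinism, had 30 regions in 501mel and 11 in SKMEL-5, with 24 K27ac regions in 501mel and 6 in SKMEL-5. For ERBB4, a receptor tyrosine kinase, 501mel had 21 regions and SKMEL-5 had 4, while neither list had a region at its start. PRKG1, a cGMP-dependent kinase, had 24 in 501mel and 9 in SKMEL-5, and DNM3, a dynamin, had 25 in 501mel and 12 in SKMEL-5. AGAP1, a GTPase activator of vesicle traffic, had 24 in 501mel and 11 in SKMEL-5, and CRACD, a regulator of actin capping, had 21 in 501mel and 7 in SKMEL-5. SETBP1 had 17 in 501mel and 4 in SKMEL-5, and ABCA4, a retinoid transporter, had 15 in 501mel and 3 in SKMEL-5. K27ac regions were also more numerous in 501mel at all 10 of these genes, and CTCF regions at 7 of the 10. Both counts include MOB3B of the chromosome 9 stretch, where missing regions cannot be told apart from missing DNA. With the lists as deposited all 10 passed the limit, which was fixed in advance because the full list can only add 501mel regions. At a −log10 q of at least 10 only 5 did, PRKG1, CRACD and SETBP1 fell below the limit, and AGAP1 and DNM3 turned, with 1 region fewer in 501mel than in SKMEL-5.

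The largest differences in favour of SKMEL-5 lay at SHANK2, CNTNAP2, RBFOX3, PALM2AKAP2 and HECW1. SHANK2, a synaptic scaffold, had 5 regions in 501mel and 24 in SKMEL-5. Its window held 0 K27ac regions of 501mel and 16 of SKMEL-5, and 4 CTCF regions of 501mel and 59 of SKMEL-5. CNTNAP2, a neurexin-like adhesion protein, had 7 in 501mel and 23 in SKMEL-5, and its start was open in SKMEL-5 only. RBFOX3, a neuronal splicing factor, had 5 in 501mel and 21 in SKMEL-5, PALM2AKAP2, a kinase anchor, 4 in 501mel and 20 in SKMEL-5, and HECW1, a ubiquitin ligase, 7 in 501mel and 22 in SKMEL-5. At IQCJ-SCHIP1, a readthrough locus of a node of Ranvier protein, 501mel had 10 and SKMEL-5 24. DPP6, a potassium channel subunit, and THRB, a thyroid hormone receptor, each had 3 in 501mel and 17 in SKMEL-5, and PRUNE2 had 5 in 501mel and 17 in SKMEL-5. PDE1C, a cyclic nucleotide phosphodiesterase, had 7 in 501mel and 20 in SKMEL-5, although its start was open in 501mel only. K27ac and CTCF regions were more numerous in SKMEL-5 at all 10 genes. Of the 10, 4 (CNTNAP2, HECW1, DPP6 and PDE1C) lay on chromosome 7, which held more regions in SKMEL-5 in all. RBFOX3 had 22 regions in the full 501mel list against 21 in SKMEL-5, and DPP6 had 19 in the full 501mel list against 17 in SKMEL-5, so the direction turned. None of the 10 passed the limit with the lists as deposited, where the other 8 differed by −1 to −8 regions, 501mel minus SKMEL-5. At a −log10 q of at least 10, 9 of the 10 passed.

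**Figure D5:**
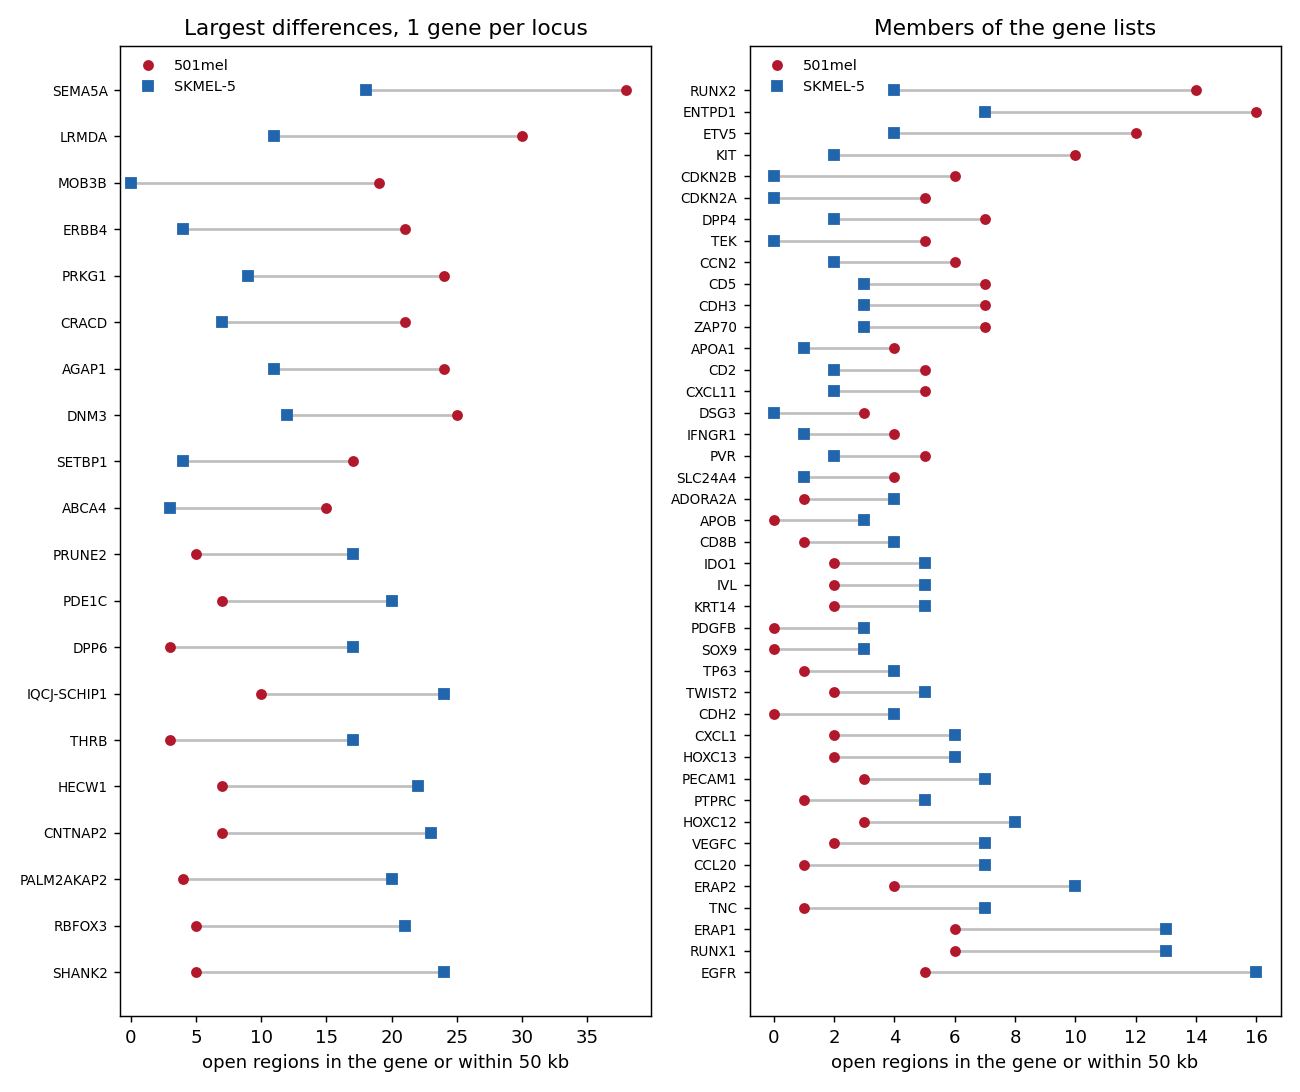
Number of open regions in the gene or within 50 kb of it (x axis) in the equal-length lists of 501mel (circles) and SKMEL-5 (squares), for the 10 genes of largest difference in each direction, 1 per Mb (left), and for the 42 members of the gene lists that passed the limit (right). MOB3B, CDKN2A, CDKN2B and TEK of chromosome 9 have 0 regions in SKMEL-5, and SOX9, CDH2, PDGFB and APOB have 0 in 501mel.

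Starts were read separately. A region within 1 kb of a start was present in both lines at 10755 genes, in 501mel only at 1062 (5.32%), in SKMEL-5 only at 1098 (5.50%) and in neither at 7059. Of the 1098 starts open in SKMEL-5 only, 534 (48.6%) had a lower-ranked region in the full 501mel list and 564 had none. Starts open in 501mel only carried K27ac within 1 kb in 32.3% of cases in 501mel (29.6 to 35.2) and 42.2% in SKMEL-5 (39.2 to 45.2). Those open in SKMEL-5 only carried it in 4.10% in 501mel (3.08 to 5.44) and 25.7% in SKMEL-5 (23.2 to 28.3). CTCF lay within 1 kb of 34.4% of the 501mel-only starts in 501mel and 34.7% in SKMEL-5, and within 1 kb of 6.65% of the SKMEL-5-only starts in 501mel and 33.2% in SKMEL-5. At SKMEL-5-only starts both readouts were more frequent in SKMEL-5, and at 501mel-only starts neither was more frequent in 501mel. Over all genes K27ac lay within 1 kb of 22.3% (501mel) and 46.7% (SKMEL-5), and CTCF of 33.5% (501mel) and 39.8% (SKMEL-5). Beside these shares, 501mel-only starts stood higher for K27ac of 501mel and lower for K27ac and CTCF of SKMEL-5. SKMEL-5-only starts stood lower in every list, most of all in those of 501mel. For 4162 of the genes no start was listed and either gene end was used.

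Genes of 22 lists, 389 genes in all, were then read by role. Of these, 19 (4.88%) had more regions in 501mel and 23 (5.91%) in SKMEL-5. Further, 27 starts (6.94%) were open in 501mel only and 40 (10.3%) in SKMEL-5 only. Over all genes the same shares were 3.04% (501mel) and 3.79% (SKMEL-5) for regions and 5.32% (501mel) and 5.50% (SKMEL-5) for starts, and the lists were chosen with results of these data known. Counting the 10 genes above, 33 genes are named with more regions in SKMEL-5, and with the lists as deposited 1 of them, IDO1, passed the limit. All 29 named with more in 501mel passed it, which was fixed in advance, as only 501mel regions were added.

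Starts of melanocytic genes were open in both lines for the most part, as were 10755 of the starts of all 19974 genes. MITF, the master factor of the lineage, had 29 regions in 501mel and 24 in SKMEL-5. SOX10 had 12 in 501mel and 11 in SKMEL-5, and PAX3 had 10 in 501mel and 7 in SKMEL-5; starts of all 3 were open in both lines. Of the 13 lineage factors 9 starts were open in both, and of 20 pigment and melanosome genes 15, including TYR, TYRP1, DCT, MLANA and SLC45A2. TYR, which encodes tyrosinase, had 8 regions in 501mel and 5 in SKMEL-5, while MLANA had 8 in 501mel and 6 in SKMEL-5. The median difference was 1 region in both lists, against 0 over all genes. KIT, the receptor tyrosine kinase of melanoblast survival, was the only lineage factor past the limit. Its window held 10 regions of 501mel and 2 of SKMEL-5, and 39 K27ac regions of 501mel and 0 of SKMEL-5. Its start was open in both, but the strongest regions there did not overlap. The 501mel region had a fold of 8.89 and a −log10 q of 38.3, the SKMEL-5 region 3.89 and 2.50. SLC24A4, an ion exchanger linked to hair colour, had 4 in 501mel and 1 in SKMEL-5. The starts of LEF1, PMEL, the melanosome matrix protein, and GPR143 were open in 501mel only. At each of these 3 K27ac was present within 1 kb in both lines, and the 501mel fold was 6.35 at LEF1, 5.32 at PMEL and 10.1 at GPR143. The starts of IRF4, a pigmentation factor, and GMPR, a purine enzyme, were open in SKMEL-5 only, with folds of 4.28 at IRF4 and 8.06 at GMPR. Within 1 kb of both, K27ac was listed for SKMEL-5 and not for 501mel.

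Among 17 neural crest-like genes SOX9 alone passed the limit, with 0 regions in 501mel and 3 in SKMEL-5. A SKMEL-5 region of fold 13.8 lay at one end of the gene (72120839 to 72121059), together with CTCF in SKMEL-5 and no CTCF in 501mel. Neither line had K27ac within 50 kb, and the 16 K27ac regions of SKMEL-5 lay farther out in the stretch described above. ZEB2, a zinc finger factor of the melanocyte lineage, had 19 regions in 501mel and 10 in SKMEL-5, below the ratio of 2, while its K27ac regions numbered 57 in 501mel and 10 in SKMEL-5. The start of SOX5 was open in SKMEL-5 only at equal length, and the full 501mel list held a region there.

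Undifferentiated and invasive genes had more starts open in SKMEL-5 only than in 501mel only at equal length. Of 28 genes, 13 starts were open in both lines, 2 in 501mel only and 6 in SKMEL-5 only. Over all genes the shares were 5.32% in 501mel only and 5.50% in SKMEL-5 only. Of all 19974 genes, 10755 had starts open in both lines. At 3 of the 6 starts open in SKMEL-5 only the full 501mel list held a region. EGFR, the epidermal growth factor receptor on chromosome 7, had 5 regions in 501mel and 16 in SKMEL-5. Its start had a lower-ranked 501mel region of fold 4.34 and a SKMEL-5 region of fold 8.20, and K27ac regions numbered 0 in 501mel and 2 in SKMEL-5. NT5E had a SKMEL-5 region over its start (85449920 to 85450553, fold 7.55) and TGFBI one of fold 5.13, both without any 501mel region there. ZEB1, a repressor of epithelial genes, had 0 regions in either version of the 501mel list and 1 region in SKMEL-5, with a fold of 3.18. SMAD3, which relays TGF-beta signals, and LOXL2, a collagen-modifying enzyme, had lower-ranked 501mel regions at another start (SMAD3) or at the other gene end (LOXL2). The LOXL2 folds were 6.43 for that 501mel region and 3.14 for the SKMEL-5 region. TNC, a matrix gene, had 1 region in the equal-length list of 501mel, 7 in its full list and 7 in SKMEL-5. RUNX1, a runt-domain factor, had 6 in 501mel and 13 in SKMEL-5, and turned to 1 more in 501mel at a −log10 q of at least 10. In the other direction RUNX2 had 14 in 501mel and 4 in SKMEL-5, and CCN2, a target of YAP and TEAD, had 6 in 501mel and 2 in SKMEL-5. The starts of CCN1 and CCN2 were open in 501mel only, while K27ac within 1 kb was listed for SKMEL-5 and not for 501mel. The median difference over the 28 genes was 0.

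Adhesion genes included cadherins that differed in opposite directions. CDH2, N-cadherin, had 0 regions in 501mel and 4 in SKMEL-5. At its start 501mel had a region of fold 4.73, outside the equal-length list, and SKMEL-5 one of fold 5.39. CDH3, P-cadherin, had 7 regions in 501mel and 3 in SKMEL-5, with 26 K27ac regions in 501mel and 3 in SKMEL-5. The CDH3 start was open in 501mel only. ITGA4 had 1 region in each line, but only SKMEL-5 had it at the start, with a fold of 13.6. The starts of ITGA10 and ITGB3 were open in SKMEL-5 only, and that of ITGA7 in 501mel only. At ITGA10 the full 501mel list held an overlapping region of fold 7.42, against 5.71 in SKMEL-5, and at ITGB3 a region at the other gene end. The median difference of the 23 genes was −1 region.

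Genes of immune signalling and of vessels were read because the series title names both. Of 18 chemokine and inflammatory cytokine genes 1 start, CCL2, was open in 501mel only (5.32% of all genes) and 6 in SKMEL-5 only (5.50% of all genes), those of CXCL1, CXCL8, CXCL16, CX3CL1, LIF and CSF1. The full 501mel list held a region at CXCL8 and at the other gene end of CSF1. CXCL1, a neutrophil attractant, had 2 regions in the equal-length list of 501mel, 8 in its full list and 6 in SKMEL-5, with 2 K27ac regions in 501mel and 8 in SKMEL-5. CCL20, an attractant of dendritic cells, had 1 region in 501mel and 7 in SKMEL-5, and CXCL11, an interferon-induced chemokine, had 5 in 501mel and 2 in SKMEL-5. The neighbouring genes of the peptide-trimming aminopeptidases ERAP1 and ERAP2 had 6 (ERAP1) and 4 (ERAP2) regions in 501mel, against 13 (ERAP1) and 10 (ERAP2) in SKMEL-5. In the full 501mel list ERAP1 had 14. IFNGR1, the interferon gamma receptor, had 4 in 501mel and 1 in SKMEL-5. Of the adenosine genes ENTPD1, the CD39 enzyme upstream of CD73, had 16 regions in 501mel and 7 in SKMEL-5, with 41 K27ac regions in 501mel and 3 in SKMEL-5. DPP4, which binds adenosine deaminase, had 7 in 501mel and 2 in SKMEL-5, while the adenosine receptor ADORA2A had 1 in 501mel, 4 in its full list and 4 in SKMEL-5. Among checkpoint ligands and suppressive genes PVR had 5 in 501mel and 2 in SKMEL-5. IDO1, an enzyme of tryptophan breakdown, had 2 in 501mel and 5 in SKMEL-5, with its start open in SKMEL-5 only.

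Of 25 angiogenesis genes 9 starts were open in both lines, 0 in 501mel only and 3 in SKMEL-5 only (VEGFB, PGF and KDR). Of all 19974 genes, 10755 were open in both, 5.32% in 501mel only and 5.50% in SKMEL-5 only. At VEGFB and PGF the full 501mel list held a region. The growth factor VEGFC had 2 regions in 501mel and 7 in SKMEL-5, with 0 K27ac regions in 501mel and 7 in SKMEL-5, while its start was open in both. PDGFB had 0 regions in the equal-length list of 501mel, 9 in its full list and 3 in SKMEL-5. TEK, with 5 in 501mel and 0 in SKMEL-5, lies in the chromosome 9 stretch. The start of KDR, the main VEGF receptor, had no region in 501mel and one of fold 6.65 in SKMEL-5. Among 12 class 3 semaphorins and plexins 0 genes passed the limit.

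The HOX clusters had more open regions in SKMEL-5 at equal length only. There 37 of 39 HOX genes had more in SKMEL-5, whereas in the full 501mel list 29 had more, 6 as many and 4 fewer than in SKMEL-5. Over the 39 HOX genes the median difference was −2 regions, 1 start, that of HOXA10, was open in 501mel only and 7 in SKMEL-5 only. Of all genes, 5.32% had a start open in 501mel only and 5.50% in SKMEL-5 only. The 39 genes form 4 loci, share most of their regions and so are not separate observations. HOXC12 had 3 regions in 501mel and 8 in SKMEL-5, while HOXC13 had 2 in 501mel and 6 in SKMEL-5. Both passed the limit, 2 of 39 genes beside 3.79% of all genes, and neither did with the lists as deposited, with a 10-kb window or at a −log10 q of at least 10. HOXD13, the gene the study manipulated, had 6 in 501mel and 7 in SKMEL-5, and neither list had a region within 1 kb of its start. Its neighbours HOXD3, HOXD10 and HOXD11 had starts open in SKMEL-5 only, with none in the full 501mel list. At the other 4, HOXB5, HOXB7, HOXB9 and HOXC9, the full 501mel list held a region at the start or gene end.

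Cancer-testis antigen genes, which are silent outside the germ line and reactivated in many melanomas, leaned to 501mel at their starts. Of 26 genes 6 starts were open in 501mel only (MAGEA1, MAGEA11, MAGEB1, MAGEC1, CTAG1B and CTAG2) and 0 in SKMEL-5 only, while 14 were open in neither line. Of all 19974 genes, 7059 had a start open in neither line. Over all genes the shares were 5.32% in 501mel only and 5.50% in SKMEL-5 only. MAGEA11 had a fold of 15.3 and MAGEC1 of 13.2. None of the 6 carried K27ac within 1 kb in either line, and none had it within 50 kb. All 6 lie on chromosome X, and members of these families have near-identical copies whose reads may not be placed uniquely. How such reads were treated is not given in the sources used here. Regions within 50 kb showed no lean, with 57 in each line when summed over the 26 genes. Their median difference was 0, and 0 genes passed the limit in either direction. The 26 genes form 19 loci, so neighbours are not separate observations.

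Cell cycle and signalling genes differed at few places. Apart from CDKN2A and CDKN2B, the start of TERT, the telomerase subunit, had a region of fold 7.23 in 501mel and none in SKMEL-5. The start of CDKN1A, which encodes the p21 inhibitor, had none in 501mel and one of fold 9.65 in SKMEL-5. ETV5, an ETS factor downstream of MAPK signalling, had 12 regions in 501mel and 4 in SKMEL-5, with 31 K27ac regions in 501mel and 5 in SKMEL-5. Of 15 housekeeping genes 14 starts were open in both lines. Markers of other cell types were mostly without a region at their start in either line, with 11 of 12 keratinocyte, 9 of 12 T cell, 8 of 12 fibroblast, 11 of 12 endothelial and 10 of 12 hepatocyte genes in that state. Of 12 Schwann cell markers 8 starts were open in both lines. Of all 19974 genes, 7059 had a start open in neither line and 10755 a start open in both. Still, 14 of these marker genes passed the limit for regions within 50 kb, among them PTPRC with 1 region in 501mel and 5 in SKMEL-5 and DSG3 with 3 in 501mel and 0 in SKMEL-5. Of 12 T cell markers 3 passed for 501mel and 2 for SKMEL-5, and of 12 keratinocyte markers 1 and 3. For endothelial and for hepatocyte markers it was 1 and 1, for fibroblast markers 0 and 1, and for Schwann cell markers 0 and 0. Over all genes 3.04% passed for 501mel and 3.79% for SKMEL-5.

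Promoter sequence was read for 22132 starts of 15812 genes, 300 bases each from RefSeq (GRCh38.p14). Promoters open in 501mel only (1314) and in SKMEL-5 only (1198) had the same median GC content of 64.7%, close to 65.7% where both lines were open and above 54.3% where neither was. Their median number of CpG dinucleotides was 23 in 501mel and 22 in SKMEL-5, against 27 (both) and 6 (neither). The 10 motifs were searched by their exact letters on both strands: M-box TCATGTG, E-box CACGTG, SOX ACAATG, AP-1 TGANTCA, TEAD GGAATG, ETS CCGGAA, GC box GGGCGG, CRE TGACGTCA, CCAAT box CCAAT and TATA box TATAAA. No motif contains another, though ETS and TEAD letters can share bases. The ETS letters stood in 18.2% (16.2 to 20.4) of the promoters open in 501mel only and 14.3% (12.4 to 16.4) of those open in SKMEL-5 only, against 31.5% of those open in both and 21.2% of all. E-box letters stood in 10.4% (8.82 to 12.1) of the 501mel-only and 6.84% (5.55 to 8.42) of the SKMEL-5-only promoters, with 10.0% where both were open and 8.34% of all. SOX letters stood in 9.36% of the 501mel-only and 7.18% of the SKMEL-5-only promoters (8.16% of all), and M-box letters in 2.44% of the 501mel-only and 1.50% of the SKMEL-5-only promoters (2.31% of all). For AP-1 the shares were 6.16% (501mel only) and 6.34% (SKMEL-5 only) beside 6.15% of all, and for TEAD 12.6% (501mel only) and 12.7% (SKMEL-5 only) beside 12.2% of all. The GC box stood in 61.0% of the 501mel-only and 60.3% of the SKMEL-5-only promoters (56.3% of all), and CCAAT in 27.8% of each (34.6% of all). TATA letters stood in 8.68% of the 501mel-only and 8.51% of the SKMEL-5-only promoters (9.46% of all), and CRE letters in 2.28% of the 501mel-only and 1.67% of the SKMEL-5-only ones (2.26% of all). Of the printed promoters, that of GPR143 held 2 M-boxes and 4 GC boxes, that of CDKN2B 1 TEAD match and 2 GC boxes, that of CXCL1 1 ETS match and 1 GC box, and that of ITGA4 none of the 10. A match describes the letters and not binding.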

How the data were processed

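The members and gene lists were chosen with earlier results of these data known. Per the submitters' processing notes, the authors used Trim Galore, Bowtie2, SAMtools, MACS2 and deepTools with hg38, without versions or settings. Each deposited list gives a score, which in nearly every region equals 10 times the −log10 q, a −log10 p and −log10 q, and the fold enrichment at the summit, a ratio computed by the authors. Within each list they served for ranking, filtering and description. No file gives counts of reads, so sequencing depth is unknown. In all, 302 regions of 501mel and 25 of SKMEL-5 on other sequences were left out, and no 2 regions shared coordinates.

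Regions were shared at an overlap of 1 bp. Ranking for equal length used −log10 q, then fold. Shares carry 95% Wilson intervals. Genes were the 19974 protein-coding genes of RefSeq GRCh38.p14, with promoter starts for 15812 and gene ends for the other 4162; a region was near a start within 2 kb of its midpoint. Introns and exons were not told apart. Named were the 10 genes and 10 regions of largest difference or fold per line, 1 per Mb, list members past the limit or open at the start in 1 line, and melanocytic genes. The start of a housekeeping gene is not reported here. Chromosome 7 and 10 and the stretches were picked after their values were seen. Python 3.11.15, NumPy 2.4.6 and pandas 2.3.3 were used. The functions for overlaps, classes, window counts, distances and gene calls were tested on simulated lists with known answers, and the others were not.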

Additional observations from a re-analysis of the deposited data

How the results depend on the processing

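No paired analysis was possible because each line has 1 ATAC library and the result comes from no test. The shares shared (63.4% of 501mel, 66.0% of SKMEL-5) changed as follows. In 501mel the share was 42.2% with the lists as deposited, 62.8% with equal length set by fold, 65.3% above the −log10 q limit of 5, 60.1% above that of 10, 40.8% with a reciprocal overlap of 50% and 62.9% with 500-bp summit windows. In SKMEL-5 it was 80.5, 65.2, 66.6, 60.5, 40.8 and 63.7% under the same settings. Above each −log10 q limit 501mel was held to as many regions as SKMEL-5 kept, 38759 at 5 and 19941 at 10. Joining regions within 1000 bp gave 65.5% in 501mel, and an overlap of 50% of the shorter region gave 65.4% in SKMEL-5. Leaving out the MHC or the X chromosome, and keeping every row, moved neither share beyond its interval.

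In this paragraph, regions of 1 line only are those that met no region of the other line's list as held in each setting. The near-start share of one-line-only minus shared regions was −19.8 percentage points in 501mel and −20.8 in SKMEL-5. In 501mel it was −16.5 as deposited, −14.9 above the −log10 q limit of 10, −20.5 within 1 kb and −18.5 within 5 kb, and in SKMEL-5 −17.4 as deposited and −28.2 above the −log10 q limit of 10. K27ac at 501mel-only regions, 501mel minus SKMEL-5, was 6.72 points, 3.84 as deposited, 4.29 with lists of equal length, 5.81 with 500-bp windows and 14.4 within 1000 bp (the last 2 chosen after seeing the data), and turned to −12.6 above the −log10 q limit of 10. At SKMEL-5-only regions it was −14.3, then −12.2, −15.1 and −28.0 as deposited, with equal K27ac lists and above the −log10 q limit of 10. For CTCF the difference at 501mel-only regions was 8.93, then 0.0795, 12.0 and 23.7, and at SKMEL-5-only regions −19.4, then −18.0, −13.9 and −25.4, in the same order.

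Genes with more regions numbered 607 in 501mel and 758 in SKMEL-5. As deposited there were 5668 in 501mel and 52 in SKMEL-5, with a difference of at least 5 there were 262 in 501mel and 209 in SKMEL-5, and a 10-kb window gave 410 in SKMEL-5. Starts open in 1 line only numbered 1062 in 501mel and 1098 in SKMEL-5, as deposited 2027 in 501mel and 564 in SKMEL-5, and 2204 in 501mel above the −log10 q limit of 10. Of 62 named genes, 30 kept their call as deposited (29 of 29 for 501mel and 1 of 33 for SKMEL-5), 21 above the −log10 q limit of 10 and 38 with either window. As deposited the 29 for 501mel could not lose their call, because only 501mel regions were added. The sign turned as deposited for RBFOX3 (1), DPP6 (2), PDGFB (6), ERAP1 (1), CXCL1 (2), KRT14 (3) and PECAM1 (4), in regions of 501mel minus SKMEL-5. At a −log10 q of at least 10 it turned for AGAP1 (−1), DNM3 (−1), RUNX1 (1), CXCL1 (2) and APOA1 (−1), and with a 100-kb window for PVR (−1). The causes were not tested. The setting as deposited differs from the main one in the lower-ranked 501mel regions that it adds. Since the SKMEL-5 list is the shorter one, of lower median −log10 q, a region absent from it is not shown to be closed.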
